A study of Rattus norvegicus with 6 samples.

Results

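Motile cilia are the beating projections of the multiciliated cells of the airways, where they clear mucus. Each is built on an axoneme, a ring of doublet microtubules around a central pair. Outer and inner dynein arms on the doublets slide them past each other, the nexin-dynein regulatory complex and the radial spokes control that sliding, and assembly factors fold the dyneins in the cytoplasm before they are carried into the cilium. Foxj1 is the transcription factor that switches on this gene programme in multiciliated cells, together with factors of the RFX family.

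The motile cilia genes described here are the rows whose symbol begins with Dnah, Dnai, Dnaaf, Rsph, Cfap or Drc, or is Foxj1, Tppp3, Tekt1, Hydin, Spag6l or Mcidas, and whose mean level is at least 1 CPM (read counts scaled to library size) over the 6 libraries. Such a symbol was carried by 92 of 22835 genes, and 87 pass the level minimum. All 87 were tested. The smallest mean among them was 1.11 CPM for Cfap90, next to Cfap157 at 1.43 CPM. Just outside were Mcidas at 0.355 CPM and Dnah8 at 0.172 CPM. Cfap68, Rsph6a and Cfap97d1 lay lower still.

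The study asked how the lung transcriptome changes in pulmonary fibrosis that follows mitochondrial damage in the epithelium. RNA came from whole lung of female rats of SD background, 12 weeks old, with 3 ND1_cKO and 3 control libraries. ND1_cKO rats carried Sftpc-Cre, in which the promoter of the gene for surfactant protein C drives the recombinase, and the LSL-DdCBE-ND1 allele, which after recombination makes a base editor aimed at the mitochondrial complex I gene ND1. The controls were ND1LSL littermates of the same age per the series description, so they carried the editor allele in its silent form, whereas the sample labels call them WT. By that description Cre and the active editor are present in ND1_cKO alone, so their effects and that of the edit cannot be told apart. In the adult lung Sftpc is a gene of alveolar type 2 cells, and in the mouse it is also transcribed in distal epithelial progenitors of the developing lung. The counts do not show which cells carried the edit, and in whole lung fewer ciliated cells and less RNA per ciliated cell cannot be told apart.

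Total counts were between 36526203 and 37093879 in ND1_cKO and between 28669995 and 38303274 in control libraries, the smallest being control replicate 3. ND1 itself had 3679, 3427 and 3737 CPM in ND1_cKO replicates 1, 2 and 3, against 2679, 2432 and 3083 CPM in control replicates 1, 2 and 3. Its transcript did not pass the test (edgeR log2 fold change 0.40 ± 0.12 SE, adjusted p = 0.125), and counts do not report the edit. ND1_cKO replicate 3 stood farthest along the first principal component, at 53.0 against 19.3 and 10.5 for the other ND1_cKO libraries and between -31.5 and -23.7 for controls. Over all 16548 genes tested with edgeR's quasi-likelihood test, 400 were called at adjusted p below 0.05 (2.42%), 188 of them higher in ND1_cKO (1.14%) and 212 lower (1.28%).

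Only Tppp3 among the motile cilia genes passed the test between the genotypes. Of the 87 genes, 0 were called higher and 1, Tppp3, was called lower, which is 1.15% against the 2.42% called over all genes. Log2 fold changes ran between -0.80 and 0.94 with a median of 0.20, against 0.01 over all genes tested, and 71 of the 87 were positive (81.6%, against 51.9% of all genes). With DESeq2 (RLE) size factors in edgeR 71 of the 87 were positive, and with total counts only 67. With each library scaled to the members' own median, an alternative chosen after the data were seen, 46 of the 87 were positive. That scaling levels the members' median by construction, so its count is no check of the sign. Under it the median over all genes moved to -0.19. Tppp3 was again the single member called, at -1.003 (adjusted p = 0.00494). The directions given below are on the TMM scale, which sets most genes of a library level. DESeq2 called 0 members higher and Tppp3 alone lower, against 5.73% and 5.29% of all genes, and limma-voom with library weights did so against 2.82% and 2.92%. With a log2 fold change beyond 1 required as well, 0 of the 87 were called, against 0.985% of all genes. At an unadjusted edgeR p below 0.05 there were 4 higher and 1 lower, together 5.75% against 21.4% of all genes.

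The median half-width of the 95% interval of the log2 fold change was 0.49 over the 87 genes. For 72 of them the interval lay between -1 and 1, so differences of more than 2-fold were outside it in either direction. A rise of 1.5-fold or more was outside the interval of 32 of the 87, and for the others it was not excluded at this number of animals. The fitted fold itself was within 1.5-fold either way for 85 of the 87, or 97.7% against 82.1% of all genes. The exceptions were Tppp3, lower, and Cfap92, which had 1.66, 1.22 and 3.40 CPM in ND1_cKO and 0.708, 1.70 and 0.861 CPM in control replicates 1 to 3.

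**Figure D1:**
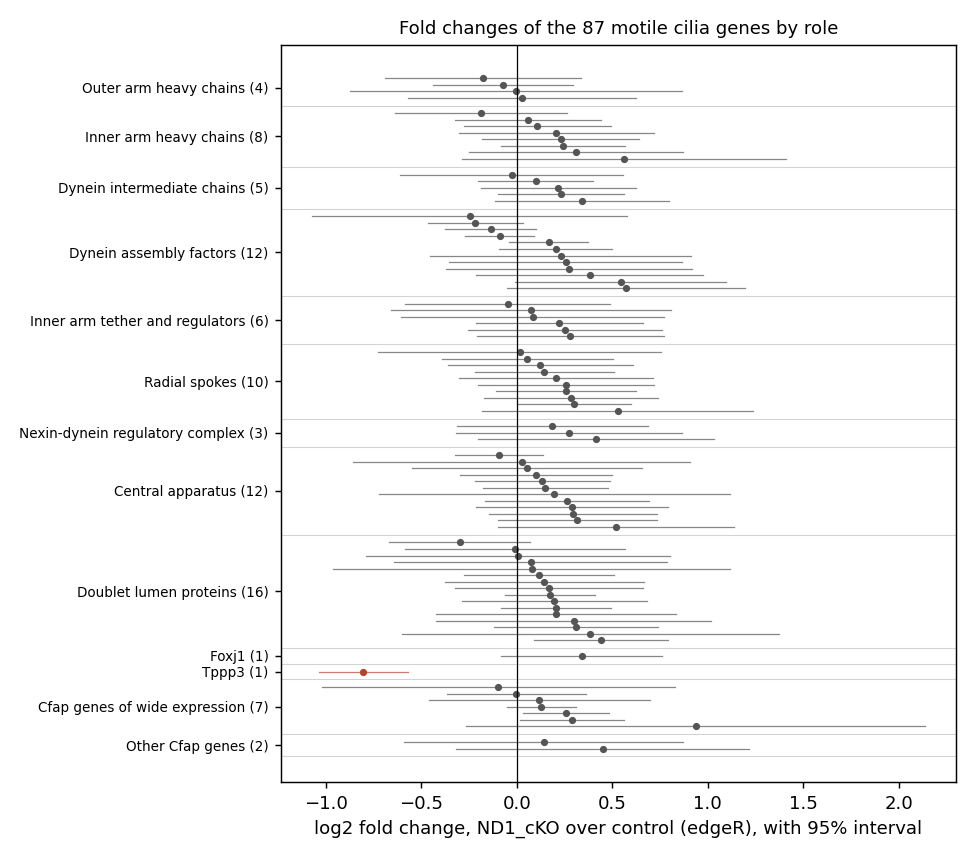
Log2 fold change of each of the 87 genes, ND1_cKO over control (horizontal axis, points), with its 95% interval (lines), grouped by role with the number of genes in brackets. Tppp3 at -0.80 is the only gene drawn in red, the colour for adjusted p below 0.05. Most other points lie a little to the right of 0 on the TMM scale, where 71 of the 87 are positive. When libraries are scaled to the members, which levels their median by construction, 46 are positive.

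What the genes shared was their profile over individual libraries. Among the controls, replicate 2 had the highest level for 74 of the 87 genes and replicate 3 the lowest for 66, where the shares over all genes were 30.1% and 31.4%. The full order of control replicates, 2 above 1 above 3, was found in 63 of the 87 (72.4%), against 14.6% of all genes. Among ND1_cKO libraries replicate 3 was highest for 65 of the 87, against 37.7% of all genes.

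Expressed as the median over the genes of the log2 level relative to the mean of the 6 libraries, ND1_cKO replicates 1, 2 and 3 stood at -0.007, 0.038 and 0.239. Control replicates 1, 2 and 3 stood at -0.103, 0.197 and -0.392. Control replicate 2 therefore lay next to the highest ND1_cKO library, and control replicate 3 below every other library. Summed over the members other than Tppp3, the level was 1447, 1475 and 1682 CPM in ND1_cKO, a mean of 1535 ± 128, and 1319, 1642 and 1140 CPM in controls, a mean of 1367 ± 254 (SD, n = 3 each). The genotypes overlapped in this sum.

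The within-genotype SD of the log2 level had a median over the genes of 0.166 in ND1_cKO and 0.324 in controls, while over all genes of at least 1 CPM it was 0.148 and 0.147. All 3 ND1_cKO libraries lay inside the range of the controls for 28 of the 87 genes, or 32.2% against 13.4% of all genes. Every ND1_cKO library lay above every control for 9 (10.3%, against 14.1%) and below for 3 (3.45%, against 14.1%). Control replicate 3 is also the library of smallest depth. The median over all genes was 0 in that library on the same scale, and the part of depth in its low ciliary level was not tested.

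**Figure D2:**
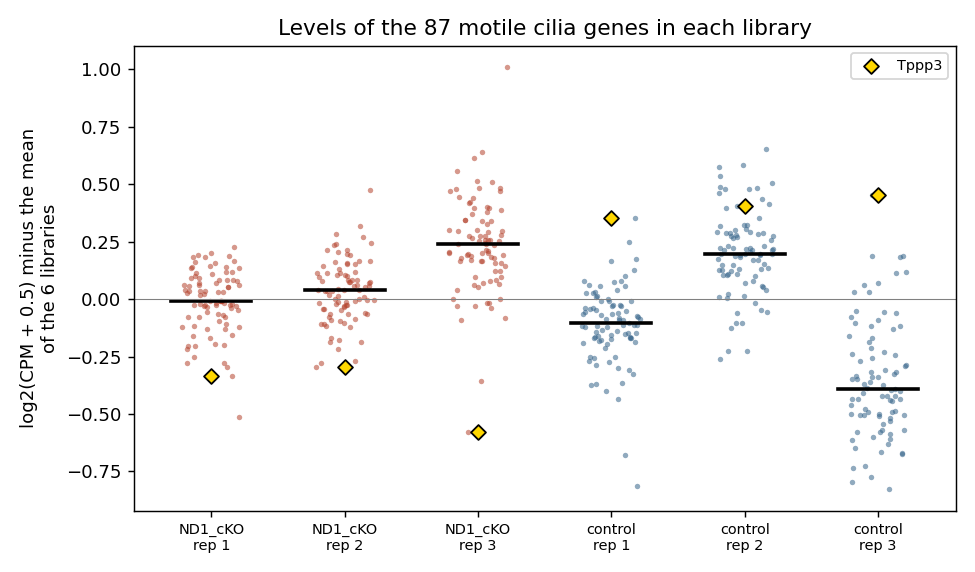
Level of each of the 87 genes in each library, as log2(CPM + 0.5) minus its mean over the 6 libraries (points), with the median (black bar). Control replicate 2 stands at a median of 0.197 and control replicate 3 at -0.392, on either side of ND1_cKO replicates 1 and 2, while Tppp3 (gold diamonds) is low in all 3 ND1_cKO libraries and high in all 3 controls.

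The median fold change moved with single libraries. It was 0.36 without control replicate 2, when 28 of the 87 had an unadjusted p below 0.05 and 0 passed the adjusted threshold, as did 0 genes of the whole table. It was 0.07 without control replicate 3 and 0.10 without ND1_cKO replicate 3.

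Tppp3, which encodes a protein that binds and bundles microtubules and is abundant in ciliated cells, fell. It had 256, 263 and 217 CPM in ND1_cKO replicates 1, 2 and 3, against 413, 428 and 443 CPM in control replicates 1, 2 and 3. The ND1_cKO libraries were all low, the controls all high, and the genotypes did not overlap. The fold was 0.573 (log2 -0.80 ± 0.10 SE, 95% interval -1.04 to -0.57, edgeR adjusted p = 0.019). Adjusted p was between 9.85e-10 and 0.043 under the other tests, scalings, filters and the replicate block, and 0.0587 without ND1_cKO replicate 1, 0.116 without control replicate 2 and 0.106 without control replicate 3, with log2 values between -0.87 and -0.73 in all leave-one-out fits. Those 3 fits called 23, 0 and 9 genes in the whole table.

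Tppp3 did not follow the library profile of the other members: control replicate 3, lowest for 64 of the 87 genes over all 6 libraries, was its highest library, and ND1_cKO replicate 3, highest for 43, was its lowest. Relative to the median of the 87 genes in each library it was at -0.328, -0.335 and -0.815 in ND1_cKO and at 0.455, 0.209 and 0.844 in controls. Beside it, 12 of the 13 markers of endothelium had negative fold changes, with 6 called lower and 0 higher. Over all genes 1.28% were called lower. The endothelial median was -0.63, with summed levels of 3569 to 3785 CPM in ND1_cKO against 5480 to 6009 CPM in controls. Of 12 type 1 cell markers 1 was called lower, with a median of -0.64 and sums of 4432 to 7476 CPM against 7823 to 9928 CPM. Of 8 leukocyte markers 0 were called, with 6 negative, 2 positive and a median of -0.74. None of these markers had a level of 0 CPM in any library, and their part in the Tppp3 result was not tested.

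**Figure D3:**
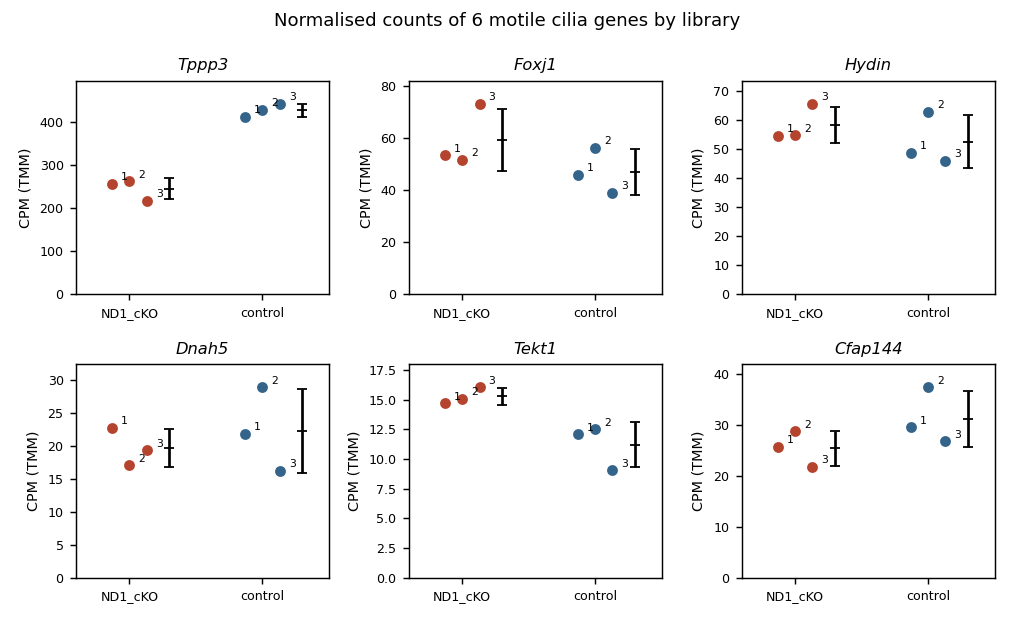
Normalised counts (CPM, vertical axes from 0) of 6 genes in each library, with replicate numbers beside the points and the mean and SD in black. Tppp3 separates the genotypes, Tekt1 does so by a small margin, and Foxj1, Hydin, Dnah5 and Cfap144 overlap, with control replicate 2 the highest control in each of these 4.

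Of the members described below, Dnah11, Dnai3, Dnai4, Dnaaf2, Dnaaf4, Dnaaf6, Rsph1, Rsph14, Cfap61, Cfap65, Cfap73, Cfap99, Cfap157 and Drc3 overlap another protein-coding gene in the RefSeq annotation. Strand use in the counting is not known, so their reads may be shared and their values are uncertain.

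Of the regulators of the programme, Foxj1 had 53.5, 51.8 and 73.3 CPM in ND1_cKO and 45.9, 56.3 and 39.0 CPM in control replicates 1 to 3. ND1_cKO replicate 3 was the highest library and control replicate 3 the lowest, and the genotypes overlapped through control replicate 2 (log2 0.34 ± 0.18, 95% interval -0.09 to 0.76, edgeR adjusted p = 0.327). Mcidas, which encodes multicilin, the coactivator that starts multiciliogenesis upstream of Foxj1, was below the level minimum, with 25, 14 and 14 reads in ND1_cKO and 12, 10 and 3 reads in controls. Every ND1_cKO library had more Mcidas reads than every control, but the difference did not pass (log2 1.04 ± 0.53, adjusted p = 0.306).

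The wider list of multiciliation regulators holds the genes of centriole amplification and the RFX factors. It had 0 of 19 called in either direction and a median of 0.20. Its library medians were 0.115, 0.067 and 0.102 in ND1_cKO and -0.044, -0.044 and -0.361 in controls. Every ND1_cKO median lay above every control median. Control replicate 2 was not high here, unlike for the motile cilia genes, while control replicate 3 was again the lowest library. Deup1, a protein of the deuterosome on which the many basal bodies form, had 5.81, 5.00 and 6.68 CPM in ND1_cKO and 3.17, 4.48 and 1.89 CPM in controls (log2 0.87 ± 0.32, edgeR adjusted p = 0.185). Plk4, the kinase that starts centriole duplication also in dividing cells, was at 0.92 ± 0.30 (adjusted p = 0.144), and the transcription factor E2f4 at 0.03 ± 0.10. All ND1_cKO libraries lay above all controls for 5 of the 19, where the share over all genes was 14.1%.

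The outer arm heavy chains, the motor subunits that drive most of the beat force, were the only role group with a median at or below 0 apart from Tppp3. Their median was -0.04, with 0 of 4 called. Dnah5 had 22.8, 17.1 and 19.4 CPM in ND1_cKO and 21.8, 28.9 and 16.2 CPM in controls, so that control libraries were both the highest and the lowest (log2 -0.18 ± 0.22, edgeR adjusted p = 0.679). Dnah9, its partner in the distal part of the human airway cilium, was at -0.07 ± 0.16 and Dnah11, the proximal partner there, at 0.03 ± 0.25, and for both all ND1_cKO libraries lay inside the control range.

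Of the 8 heavy chains grouped as inner arm motors 7 were positive, with a median of 0.22 and 0 called. Dnah3 had 27.6, 25.7 and 28.9 CPM in ND1_cKO and 21.8, 27.8 and 19.9 CPM in controls (log2 0.24 ± 0.14, adjusted p = 0.36 in edgeR). Dnah6 was at 0.11 ± 0.16 and Dnah14 at 0.56 ± 0.36. Dnah10, a subunit of the 2-headed inner arm, was the exception, with 23.6, 21.8 and 30.3 CPM in ND1_cKO and 21.9, 34.1 and 30.3 CPM in controls. Unlike most members its control replicate 1 was the lowest control, and the difference did not pass (-0.19 ± 0.19, edgeR adjusted p = 0.617).

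The 5 intermediate chains, which anchor the motors at the base of the arms, had a median of 0.22 with 0 called. Dnai4 had 23.3, 21.4 and 26.6 CPM in ND1_cKO and 19.2, 23.2 and 13.8 CPM in controls (0.34 ± 0.19, edgeR adjusted p = 0.357). Dnai3 was at 0.23 ± 0.14, and Dnai1, the outer arm chain often mutated in human primary ciliary dyskinesia, at -0.03 ± 0.25.

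The 12 assembly factors had a median of 0.22, 8 positive and 4 negative, and 0 called. Cfap300 had 10.6, 13.4 and 16.3 CPM in ND1_cKO and 8.83, 11.7 and 6.95 CPM in controls, with ND1_cKO replicate 3 the highest library and overlap only at control replicate 2 (0.55 ± 0.24, edgeR adjusted p = 0.239). Dnaaf4 was at 0.57 ± 0.27 (adjusted p = 0.269), with all ND1_cKO libraries above the controls. Dnaaf9 was at -0.09 ± 0.08 and Dnaaf6 at -0.25 ± 0.35. Dnaaf2 and Dnaaf10, named after their values were seen, lay lower in every ND1_cKO library than in any control, at -0.22 ± 0.11 and -0.14 ± 0.10, and did not pass.

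All 10 genes of the radial spokes and of the complexes at their base had positive fold changes, with a median of 0.23 and 0 called. Rsph1, a spoke head protein, had 18.7, 19.8 and 18.2 CPM in ND1_cKO and 15.1, 17.6 and 13.4 CPM in controls. The ND1_cKO libraries were all above the controls by a small margin (0.30 ± 0.13, unadjusted p = 0.0497, edgeR adjusted p = 0.233). Rsph14 was at 0.53 ± 0.30, Cfap251 at 0.26 ± 0.20 and Cfap61 at 0.02 ± 0.31.

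The 3 members of the nexin-dynein regulatory complex, the link between neighbouring doublets, were positive with a median of 0.27. Drc3 had 11.9, 10.7 and 14.4 CPM in ND1_cKO and 10.4, 11.5 and 5.78 CPM in controls, where replicate 3 was low (0.42 ± 0.26, edgeR adjusted p = 0.407). Drc7 was at 0.27 ± 0.25 and Drc1 at 0.19 ± 0.21.

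Of the 12 central apparatus genes 11 were positive, with a median of 0.17 and 0 called. Hydin, the giant protein of a central pair projection, had 54.6, 54.7 and 65.5 CPM in ND1_cKO and 48.7, 62.8 and 45.9 CPM in controls (0.15 ± 0.14, edgeR adjusted p = 0.575). Spag6l had 29.3, 30.6 and 32.5 CPM in ND1_cKO and 25.4, 31.6 and 18.4 CPM in controls (0.29 ± 0.19, adjusted p = 0.407). In both genes control replicate 2 reached the ND1_cKO level and control replicate 3 was the lowest library. Cfap99 was at 0.52 ± 0.26, Cfap65 at 0.32 ± 0.18 and Cfap70 at -0.09 ± 0.10. Reads of Spag6l may be shared with its close relative Spag6.

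The 16 proteins that line the inside of the doublets had a median of 0.17, with 14 positive and 0 called. Tekt1, one of the tektins that form filaments in the doublet lumen, had 14.7, 15.1 and 16.0 CPM in ND1_cKO and 12.1, 12.5 and 9.05 CPM in controls. The ND1_cKO libraries were all higher than the controls, yet the difference did not pass (0.44 ± 0.15, unadjusted p = 0.0202, edgeR adjusted p = 0.153). Cfap144 ran the other way, with 25.7, 28.7 and 21.7 CPM in ND1_cKO and 29.5, 37.4 and 26.8 CPM in controls (-0.30 ± 0.16, adjusted p = 0.318). Cfap20 was at 0.18 ± 0.10 and Cfap90 at 0.08 ± 0.44.

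The 6 genes grouped with the inner arm tether and its regulators had a median of 0.15, and for 5 of the 6 all ND1_cKO libraries lay inside the control range. Cfap44 had 73.6, 83.0 and 86.4 CPM in ND1_cKO and 65.4, 86.9 and 47.5 CPM in controls, and Cfap43, its partner in the tether, had 71.2, 69.6 and 75.1 CPM against 58.8, 79.9 and 46.2 CPM. Both followed the same order of controls, at 0.28 ± 0.21 and 0.22 ± 0.19, and Cfap73 was at -0.05 ± 0.23.

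Of the 7 Cfap genes listed as widely expressed outside ciliated cells, 0 were called and the median was 0.13. Cfap418 had 18.3, 18.9 and 20.0 CPM in ND1_cKO and 15.3, 16.2 and 16.3 CPM in controls, and Cfap410 had 16.0, 14.5 and 15.7 CPM against 13.8, 11.8 and 12.2 CPM. Cfap418 and Cfap410 differed little among controls and lay higher in every ND1_cKO library. They were at 0.26 ± 0.10 and 0.29 ± 0.12, with edgeR adjusted p of 0.183 and 0.214. The group was mixed, with all ND1_cKO libraries above the controls for 3 of the 7. Its library medians were 0.071, 0.096 and 0.167 in ND1_cKO and -0.091, 0.173 and -0.244 in controls, which is the control order of the other members. Cfap92 was at 0.94 ± 0.51 (edgeR adjusted p = 0.34), Cfap36 at 0.13 ± 0.08 and Cfap97d2 at -0.10 ± 0.39. The 2 members without a role group, Cfap157 and Cfap299, were at 0.45 ± 0.33 and 0.14 ± 0.31.

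Compared with the median of all 87 genes in the same library, 12 genes (13.8%) separated the genotypes, 5 above (5.75%, against 3.48% of all genes on this scale) and 7 below (8.05%, against 14%). Tppp3 differed most, by -0.995 on the log2 scale, followed by Cfap144 at -0.48. At the other end were Cfap92 at 0.48, Cfap300 at 0.34 and Cfap99 at 0.34, of which Cfap300 and Cfap99 separated the genotypes.

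Axoneme genes that carry other symbols had a similar library profile. Of 60 further axoneme genes 0 were called in either direction and 50 were positive, with a median of 0.18. Their library medians were 0.044, 0.047 and 0.245 in ND1_cKO and -0.102, 0.213 and -0.432 in controls. Tekt2 had 19.2, 29.4 and 24.5 CPM in ND1_cKO and 13.6, 15.7 and 15.8 CPM in controls (0.70 ± 0.17, edgeR adjusted p = 0.073). Ccdc146 was lower in every ND1_cKO library, at 10.6, 9.67 and 11.2 CPM against 14.9, 14.9 and 13.8 CPM (-0.47 ± 0.12, adjusted p = 0.0796), and Dynll1, a light chain that cytoplasmic dynein also uses, was at -0.05 ± 0.14.

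Of 32 further markers of ciliated cells 0 were called and 28 were positive, with a median of 0.24. Their library medians were 0.062, 0.029 and 0.277 in ND1_cKO and -0.100, 0.233 and -0.416 in controls, which is again control replicate 2 high and control replicate 3 low. Cdhr4, a cadherin-related gene, had the lowest p, with 28.7, 26.4 and 37.5 CPM in ND1_cKO and 16.8, 22.4 and 12.8 CPM in controls (0.83 ± 0.23, edgeR adjusted p = 0.0975). Aldh3b1 was at 0.38 ± 0.15 and Fhad1 at -0.30 ± 0.17.

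Intraflagellar transport, the traffic that builds primary and motile cilia alike, had 0 of 30 called, 25 positive and a median of 0.16. Its library medians spanned less, between 0.029 and 0.151 in ND1_cKO and between -0.150 and 0.038 in controls. Every ND1_cKO library lay above every control for 10 of the 30 genes and below for 1. The share over all genes was 14.1% in each direction. At an unadjusted edgeR p below 0.05, 8 were higher and 1 lower, where 21.4% of all genes were below that p. Ttc21b, a subunit of the retrograde complex, had 44.9, 56.5 and 47.4 CPM in ND1_cKO and 34.9, 38.7 and 37.9 CPM in controls, all ND1_cKO libraries being higher (0.42 ± 0.11, adjusted p = 0.0845 in edgeR). Wdr35 was at 0.35 ± 0.11 and Kifap3 at 0.09 ± 0.07.

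Markers of the secretory cells that share the airway epithelium differed from the ciliary genes in control replicate 2. Of 15 tested 0 were called, with 10 positive, 5 negative and a median of 0.40. Their log2 fold changes ran from -1.265 to 2.097, so the list was mixed. The library medians were 0.048, 0.087 and 0.252 in ND1_cKO and -0.039, -0.311 and -0.330 in controls, so control replicate 2 was low here. As for the ciliary genes, control replicate 3 was the lowest library and ND1_cKO replicate 3 the highest. The club cell gene Scgb1a1 had 6373, 6969 and 7777 CPM in ND1_cKO and 6765, 5928 and 5748 CPM in controls (0.20 ± 0.13, edgeR adjusted p = 0.432). Bpifb1 had 171, 116 and 339 CPM in ND1_cKO and 68.8, 50.7 and 26.5 CPM in controls, the genotypes not overlapping (2.10 ± 0.51, adjusted p = 0.0902), and the mucin gene Muc5ac was at 1.80 ± 0.50 (adjusted p = 0.101). Of 13 general genes of lung epithelium 3 were called higher, against 1.14% of all genes. Elf3 at 1.16 ± 0.15 (edgeR adjusted p = 0.0224) and Krt8 at 0.64 ± 0.10 (adjusted p = 0.0317) had the lowest p. The summed level of the 13 was 1693 to 1806 CPM in ND1_cKO against 1321 to 1363 CPM in controls. Markers of basal cells, the airway progenitors, had 0 of 5 called. Of the markers of other cells, 1 of 12 for type 2 cells and 1 of 6 for mesothelium were called higher, against the same 1.14%. The type 2 list was mixed, with 7 positive and 5 negative. In it Sftpc was lower in every ND1_cKO library (-0.78 ± 0.24, edgeR adjusted p = 0.133). Calls were 0 among 9 markers for fibroblasts, 7 for macrophages, 8 for leukocytes and 6 for smooth muscle. At an unadjusted edgeR p below 0.05, 4 fibroblast markers were higher and 0 lower, and 6 leukocyte markers were lower and 0 higher. Over all genes 21.4% were below that p, both directions together.

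**Figure D4:**
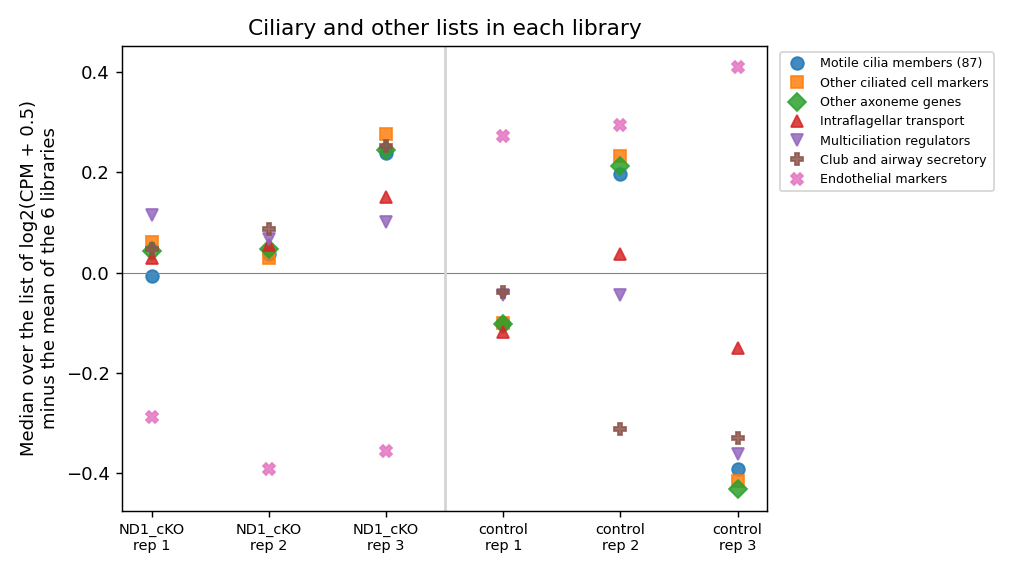
Median over each list of log2(CPM + 0.5) minus the mean of the 6 libraries (vertical axis) in each library. The 87 motile cilia genes, the other axoneme genes and the other ciliated cell markers fall together, near 0.2 in control replicate 2 and near -0.4 in control replicate 3, whereas airway secretory markers are low in control replicate 2 and endothelial markers are low in all ND1_cKO libraries.

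RFX factors bind an inverted repeat called the X-box, and promoters were searched because these genes varied together over the libraries. RefSeq promoters (build GRCr8, 250 bases before to 50 bases after the start) were matched for 57 of the 87 genes, and 14907 promoters of genes in the table served for comparison. The single site GTTGCC, on either strand, was in 20 of the 57 (35.1%), against 12.5% of all promoters. The paired site, GTNNCC followed after 0 to 3 bases by GGNNAC, was in 12 of the 57 (21.1%), against 4.19% of all, and may overlap a single site. The forkhead core TGTTTAC, on either strand, was in 2 of the 57 (3.51%), against 2.75% of all. No test was made of these shares, and a match describes letters, not a bound site.

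Of 14 paired sites in these promoters 12 began within 100 bases before the start or after it, as did 21 of 27 single sites. That window is a large part of the 300 bases searched. Positions were not counted in the other promoters, so a preference for the start was not tested. The promoters of Spag6l (chr11:97677590-97677889, plus strand), Cfap144 (chr10:44019232-44019531, minus strand), Tekt1 (chr10:57479072-57479371, minus strand) and Hydin (chr19:55146216-55146515, plus strand) are shown, with single, paired and forkhead matches in capitals. Spag6l and Cfap144 hold a paired site, while Tekt1 and Hydin hold a single site only.
Spag6l: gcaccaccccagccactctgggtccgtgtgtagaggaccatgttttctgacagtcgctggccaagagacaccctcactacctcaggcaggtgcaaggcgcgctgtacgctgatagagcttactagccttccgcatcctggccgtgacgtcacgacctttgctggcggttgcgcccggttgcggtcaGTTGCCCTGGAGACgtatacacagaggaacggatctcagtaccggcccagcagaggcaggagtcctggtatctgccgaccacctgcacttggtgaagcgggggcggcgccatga
Cfap144: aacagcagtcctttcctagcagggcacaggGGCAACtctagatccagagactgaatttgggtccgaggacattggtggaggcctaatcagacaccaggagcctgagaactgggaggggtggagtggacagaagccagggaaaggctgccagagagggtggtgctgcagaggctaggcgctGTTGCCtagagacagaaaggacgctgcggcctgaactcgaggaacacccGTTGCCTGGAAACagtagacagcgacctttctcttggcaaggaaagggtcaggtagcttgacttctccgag
Tekt1: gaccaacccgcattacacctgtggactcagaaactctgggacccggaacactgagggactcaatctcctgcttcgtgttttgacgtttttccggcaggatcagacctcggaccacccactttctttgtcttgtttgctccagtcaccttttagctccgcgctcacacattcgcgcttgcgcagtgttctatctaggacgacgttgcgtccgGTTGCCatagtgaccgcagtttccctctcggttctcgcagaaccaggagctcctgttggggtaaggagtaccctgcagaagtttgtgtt
Hydin: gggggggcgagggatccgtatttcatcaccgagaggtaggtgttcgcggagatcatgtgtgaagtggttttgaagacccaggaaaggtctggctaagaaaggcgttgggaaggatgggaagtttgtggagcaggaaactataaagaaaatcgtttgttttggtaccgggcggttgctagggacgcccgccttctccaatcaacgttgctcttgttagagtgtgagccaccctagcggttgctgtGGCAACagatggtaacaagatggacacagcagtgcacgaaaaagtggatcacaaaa
Cfap144, with a log2 fold change of -0.30, holds 3 single sites and 1 paired site. Tppp3 and Foxj1 were not among the 57 genes matched.

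**Figure D5:**
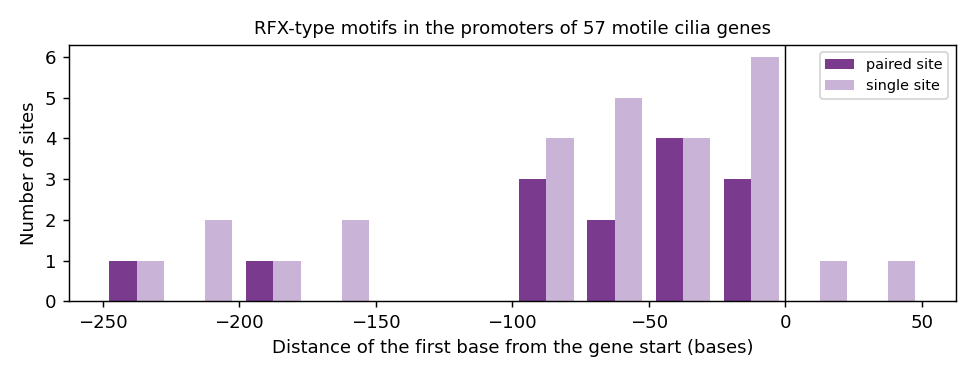
Number of paired (dark) and single (light) RFX-type sites in the promoters of 57 motile cilia genes by distance of the first base from the gene start, in bins of 25 bases (horizontal axis, bases). Of the 14 paired sites 12 begin between 100 bases before and 50 bases after the start. Positions in other promoters were not counted.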

How the data were processed

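Bulk RNA-seq was made from whole lung of 6 rats, 1 library each. What the authors deposited is a matrix of raw integer read counts by gene symbol. Every column of values could be assigned, leaving 0 without a sample. The submitters' processing notes name fastp, HISAT2, HTSeq, DESeq2 and R (4.3.3) without saying what each did. Build, annotation and strand setting are not stated there, and 25 of the 87 members overlap another protein-coding gene in RefSeq.

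After filterByExpr, edgeR 4.0.16 in R 4.3.3 (TMM, robust quasi-likelihood F test, two-sided) was fitted to the 6 libraries by genotype, and p-values were adjusted by Benjamini-Hochberg over 16548 genes, with calls at 0.05. CPM levels use TMM factors. Fold changes are ND1_cKO over control, with standard errors. Alternatives were DESeq2 1.42.0, limma 3.58.1, other scalings and filters, a replicate block and each library left out. The edgeR step was tested on simulated counts. Replicates differed beyond sampling noise (chi-square per degree of freedom of 23.7 or more).

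Members, role groups and lists were chosen with earlier results of these data known, and 364 of 390 list entries matched by symbol or RefSeq synonym. The rule names the genes given by symbol, those called, those next to the level minimum, and in each role group the 2 lowest p-values, the highest CPM and the extreme fold changes, in other lists the 2 lowest p-values and the highest CPM. Cfap68, Rsph6a, Cfap97d1, Dnaaf2 and Dnaaf10, the motifs and printed promoters, and the counts of library order and of levels relative to the members were chosen after values were seen. The sequence of 1 further promoter is not reported here. Levels were not compared between genes, since no transcript lengths were used.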

Additional observations from a re-analysis of the deposited data

How the results depend on the processing

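With 3 animals per genotype the 95% interval of a member's log2 fold change had a median half-width of 0.49, which limits what could be detected. The count of genes called over the whole table was 400, against 1879 with DESeq2, 950 with limma-voom and library weights, 262 with the replicate block, 1004 with libraries scaled to the members (an alternative chosen after seeing the data), and between 0 and 495 with a library left out, the count being 23 once ND1_cKO replicate 1 is dropped, and 184, 0 and 9 once control replicate 1, 2 or 3 is. The members called higher were 0 in every alternative run. The members called lower were 1, Tppp3, except 0 without control replicate 2, control replicate 3 or ND1_cKO replicate 1, so between 0 and 1 with a library left out. The median over the members was between 0.07 and 0.36 with a library left out, 0.014 with libraries scaled to the members, between 0.16 and 0.21 under the other tests, scalings and filters, 0.20 with a member minimum of 0.5 CPM and 0.19 with 2 CPM. The replicate block kept Tppp3 called (adjusted p = 0.043) and changed no other call among the members. Same-numbered libraries correlated at 0.231, 0.038 and 0.145 in their deviations from the genotype means, so the numbers were not taken to pair animals, although every library correlated best with its own number, a hint from the data and not from the design.

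Signs near 0 turned. With total counts only, Cfap61 was at -0.027 and Dnah11 at -0.015. With limma-voom and library weights, Cfap61 was at -0.052, Dnah11 at -0.020 and Cfap90 at -0.054. With the replicate block, Cfap97d2 was at 0.001 and Dnai1 at 0.019. With libraries scaled to the members, which lowers every fold change by construction, Hydin was at -0.033, Cfap20 at -0.041, Cfap36 at -0.066, Cfap61 at -0.113, Dnah6 at -0.073, Cfap299 at -0.024, Dnah11 at -0.123 and Cfap90 at -0.082. With a library left out, log2 fold changes ran from -0.304 to 0.418 for Cfap97d2, from -0.142 to 0.140 for Cfap73, from -0.223 to 0.400 for Cfap61, from -0.211 to 0.279 for Dnai1 and from -0.029 to 0.249 for Dnah6. They ran from -0.179 to 0.330 for Dnah11, from -0.249 to 0.294 for Cfap90, from -0.494 to 0.059 for Dnaaf6, from -0.363 to 0.051 for Dnah5, from -0.181 to 0.090 for Dnah9 and from -0.111 to 0.328 for Cfap299. Apart from that scaling, the cause was not tested.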
